A study of Mus musculus with 14 samples.

Results

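In 3T3-L1 adipocytes, 1205 of the 38684 regions acetylated at lysine 27 of histone H3 (H3AcK27) in the forskolin (FSK) list were called only in FSK libraries. These members were chosen by the measured peak calls themselves: a region of the FSK list was kept when it overlapped by at least 1 bp a region of the list for FSK with TNFα (FSK/TNFα), and overlapped no region of the control or TNFα lists. They made up 3.11% of the FSK list, and the 4 H3AcK27 lists together held 182986 regions. 3T3-L1 cells are mouse preadipocytes that can be differentiated into adipocytes in a dish, and they were used 4 days into differentiation. Control cells were left untreated. The other cells received for 1 h FSK (10 µM), a drug that switches on adenylyl cyclase, or TNFα (10 ng/ml), an inflammatory cytokine, or both agents. Each treatment had 1 H3AcK27 library, 1 library for the CREB coactivator CRTC2, and 1 for the NF-κB subunit p65. No comparison between treatments therefore has a replicate check, no test was possible, and the confidence intervals (95%, Wilson) cover counting error over regions only.

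Acetylation of H3 lysine 27 marks active promoters and enhancers, and it is laid down by CBP and p300, the coactivators that phosphorylated CREB recruits. Cyclic AMP activates PKA, which phosphorylates CREB and inhibits the SIK kinases. The CRTC coactivators then lose the phosphate groups that hold them in the cytoplasm, enter the nucleus, and join CREB on cAMP response elements (CREs). In adipocytes this pathway carries the catecholamine signal that drives lipolysis and the thermogenic program.

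Sequences are shown here for members that also carried CRTC2, a small part of the class. The 22 members with a CRTC2 peak in both FSK lists, and in neither the control nor the TNFα list, were ranked by their CRTC2 scores, and 6 of the first 10 had a CRE core, TGACG on either strand, inside the FSK peak. For 5 of these, the CRTC2 peaks in the FSK list, each 161 bp long, are printed from the plus strand of GRCm38, and capitals mark the CRE core and, in the peak near Cisd2, an AP1 motif (TGACTCA or TGAGTCA) as well.
Gap43 peak, chr16:42480171-42480331: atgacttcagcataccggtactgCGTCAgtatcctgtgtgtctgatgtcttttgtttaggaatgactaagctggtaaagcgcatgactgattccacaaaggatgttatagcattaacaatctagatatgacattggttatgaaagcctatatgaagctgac
Cdh5 peak, chr8:103970986-103971146: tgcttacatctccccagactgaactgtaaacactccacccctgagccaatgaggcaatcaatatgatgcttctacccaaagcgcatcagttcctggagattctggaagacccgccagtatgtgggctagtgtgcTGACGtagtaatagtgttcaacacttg
Cisd2 peak, chr3:135404700-135404860: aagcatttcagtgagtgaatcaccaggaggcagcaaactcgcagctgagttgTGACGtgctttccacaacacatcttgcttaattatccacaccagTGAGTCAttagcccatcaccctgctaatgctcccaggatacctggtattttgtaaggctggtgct
Eif3h peak, chr15:51682395-51682555: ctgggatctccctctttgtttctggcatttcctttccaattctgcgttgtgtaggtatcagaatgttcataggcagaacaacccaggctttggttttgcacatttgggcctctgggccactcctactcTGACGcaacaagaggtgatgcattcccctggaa
Atrnl1 peak, chr19:57969991-57970151: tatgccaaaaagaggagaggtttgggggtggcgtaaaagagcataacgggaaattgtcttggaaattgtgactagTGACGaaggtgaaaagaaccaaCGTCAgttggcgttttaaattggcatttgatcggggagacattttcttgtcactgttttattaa
The peak near Atrnl1 held 2 CRE cores and the other 4 printed here held 1. Of the 4 peaks among the 10 without a CRE core, the peak near Gm26657 held an AP1 motif, and those near Ncf4, Fam189a1, and Clk1 held neither. The 10 were picked by score, and 34.1% of all 44 CRTC2 peaks of the FSK list in members had a CRE core within 200 bp. In that list as a whole, 26.3% of CRTC2 peaks had one. A match of these letters describes the sequence only and says nothing of binding by CREB.

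The FSK libraries differed from the others in more than the drug. Both FSK lists were called against an input library of FSK-treated cells, and the control and TNFα lists against an input of untreated cells, so that FSK treatment and the choice of input cannot be told apart for any member. The share of H3AcK27 tags inside listed regions followed the same split. It was 48.55% with FSK and 50.9% with FSK/TNFα, compared with 64.91% in control and 66.68% with TNFα. This difference cannot be told apart from FSK treatment either. The FSK library was also the shallowest, with 9832884 tags, compared with between 25729060 and 27966129 tags in the other 3 H3AcK27 libraries. The tag threshold per 500 bp window stood at 9 tags for the FSK library, or 9.15 normalized tags (tags per 10000000), and at between 5.01 and 5.07 normalized tags for the other 3. The tag counts listed for called regions could fall below it, and the lowest member held 7 tags with FSK (7.12 normalized). By its FSK value, every member was thus listed above the tag thresholds of the control and TNFα libraries, where the call also required 4-fold over the other input. In the FSK/TNFα library, the overlapping regions went down to 4.66 normalized tags, below those thresholds. Signal below a threshold is not listed, so no value in control or TNFα cells can be given for a member. As a check of the cell type, H3AcK27 regions lay within 1 kb of a start site of Pparg, Fabp4, Lpl, and Lipe in all 4 lists but of no start site of Cebpa, Adipoq, Plin1, or Cd36, that is, at 4 of 8 adipocyte markers. Preadipocyte or fibroblast markers had such a region at 5 of 6 genes in the FSK list and at 6 of 6 in the others. Macrophage markers had one at between 2 and 3 of 5 genes, and the endothelial markers at between 0 and 2 of 4. The part of these other programs in the members was not tested.

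The members were a minor class of the FSK list. Most of its regions, 27036, overlapped regions in all 3 other lists, 4207 in control and TNFα but not FSK/TNFα, and 2411 in no other list. The number of members was close to that of 2 classes that the treatment does not define: 1230 FSK regions were called otherwise only in control cells, and 1043 only in control and FSK/TNFα. The class with the roles exchanged, control regions called in TNFα and in neither FSK list, held 7988 of 52321 control regions (15.3%), and is called the control/TNFα class here. Both counts depended on list length, and with lists of equal length they were 2255 and 4288. Among the 3616 FSK regions found in neither control nor TNFα, 33.3% were called again with FSK/TNFα. By comparison, among the 3641 FSK regions found in neither TNFα nor FSK/TNFα, 33.8% were called in control. Wider regions were called again more often, and this was not particular to members. Among the FSK regions in neither control nor TNFα, 30.6% of the 3377 of at most 1000 bp were called again with FSK/TNFα. For the 239 wider ones the share was 71.1%. Of FSK regions in neither TNFα nor FSK/TNFα, 1098 of at most 1000 bp were called in control and 2342 in no other list. Over 1000 bp these counts were 132 and 69.

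**Figure D1:**
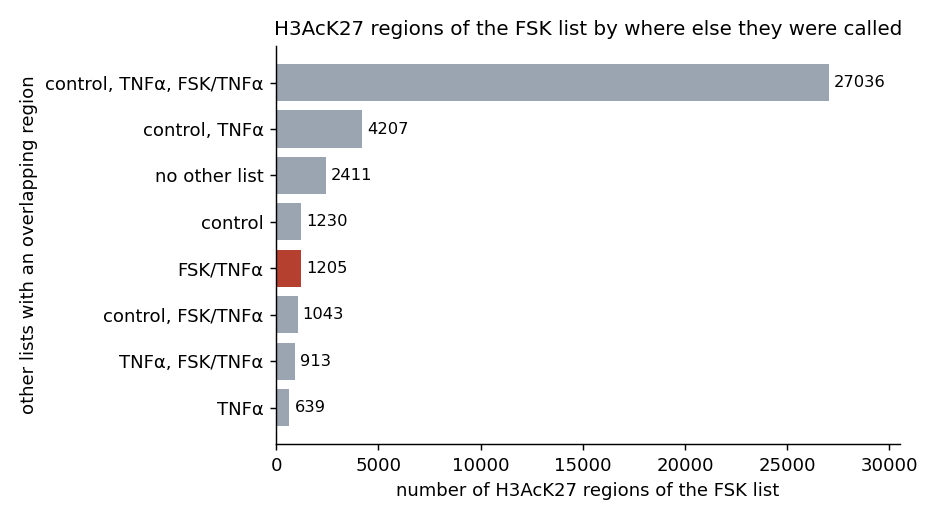
Number of H3AcK27 regions in the FSK list (x axis) by the other lists in which an overlapping region was called (y axis), with 1 library per list. The 1205 members, in red, are about as many as the 1230 regions shared with the control list alone, and far fewer than the 27036 called in all 4 lists.

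The values that chose the members describe small regions, near the calling limit in tags. Their median width was 500 bp, the smallest a region can have, 51.8% were of exactly that width, and the widest was 3361 bp. They held a median of 14.2 normalized tags in the FSK library, from 7.12 to 168.8, and their median fold over input was 6.34. All FSK regions gave 49.8 normalized tags and 6.45-fold, so the members did not stand apart in fold. In the FSK/TNFα library the overlapping regions held a median of 12.4 normalized tags, from 4.66 to 2030, at a median of 5.50-fold over input. Per kb the median density was 24.4 normalized tags with FSK and 18.5 with FSK/TNFα, and 83.2% of members were denser in the FSK library, whose tag threshold was the higher. The FSK input held a median of 3.73 normalized tags per kb at members, compared with 7.15 at regions called in all 4 lists. This gap was smaller at most 1000 bp, with medians of 3.67 and 5.08. It remained over 1000 bp, at 4.78 for members and 7.72 for regions called in all 4 lists. Regions of at most 1000 bp gave 4.47 when called in the FSK list alone and 4.49 when shared with control alone. Over 1000 bp these 2 classes gave 5.49 and 5.38. At 8-fold over input in both FSK lists, 118 members (9.79%) remained. For 209 members (17.3%), the FSK/TNFα region that they overlapped itself overlapped a control or TNFα region, which left 996 members free of such a link. Near the thresholds, the members beside Prrx1 and Tcta overlapped a FSK/TNFα region by 1 bp each. Members beside Fam222b and Card14 lay 0 and 2 bp from a control or TNFα region without overlap, and the FSK regions beside Tmem44 and Kmt2e stayed outside the class through an overlap of 2 bp.

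**Figure D2:**
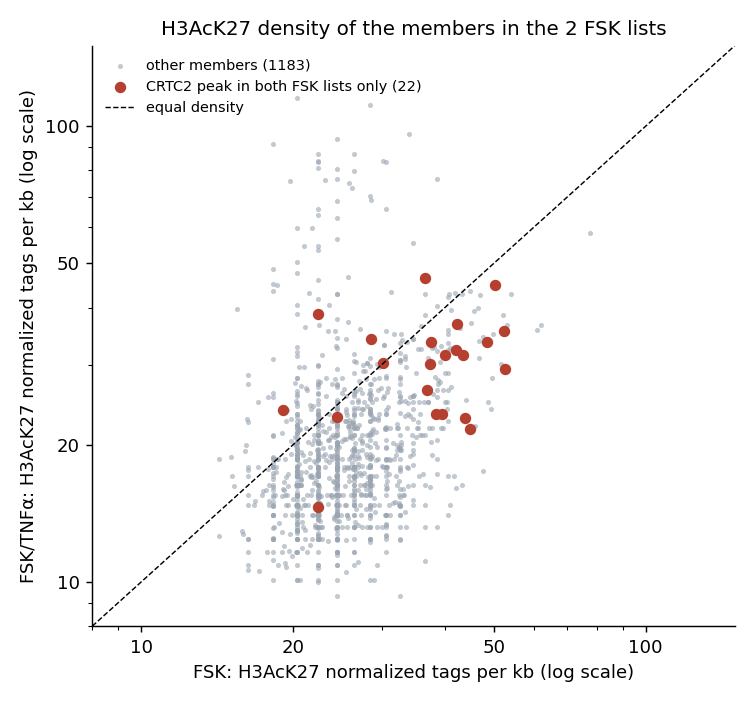
H3AcK27 density of the 1205 members, in normalized tags per kb on log axes, in the FSK library (x axis) and in the overlapping FSK/TNFα region (y axis), where each point is 1 region. Most points (83.2%) lie below the dashed line of equal density, and the 22 members with a CRTC2 peak in both FSK lists only (red) lie toward the dense end.

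Members often lay close to acetylated chromatin of the other lists. The median gap from a member to the nearest control or TNFα region was 1956 bp, 37.9% (95% CI 35.2 to 40.7) lay within 1 kb of one, and 76.7% within 10 kb. FSK regions called in no other list gave similar values, at 2546 bp, 33.2%, and 74.0%. For the control/TNFα class, the median gap to the nearest FSK or FSK/TNFα region was 5604 bp, and 16.4% lay within 1 kb. The lists behind these gaps differ in length, which was not corrected for. The 170 members over 1000 bp were more often isolated, with a median gap of 4253 bp and 19.4% within 1 kb (95% CI 14.2 to 26.0). For FSK regions of that width called in no other list, the values were 3439 bp and 21.7% (13.6 to 32.8).

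**Figure D3:**
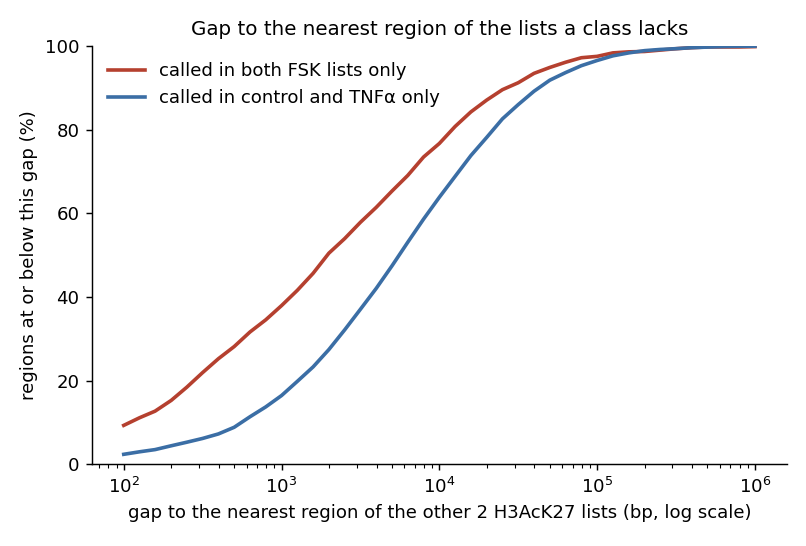
Cumulative share of regions (y axis, %) by the gap to the nearest H3AcK27 region of the lists in which they were not called (x axis, bp, log scale). At 1 kb the curve for members (red) stands at 37.9% and that for the control/TNFα class (blue) at 16.4%.

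By position, members were distal. A promoter, taken as the 1000 bp before and the 100 bp after a protein-coding start site, was overlapped by 42 members (3.49%, 95% CI 2.59 to 4.68), against 25.1% of all FSK regions and 4.87% of the control/TNFα class. The share was 8.29% in other FSK regions of at most 1000 bp. It was 1.74% in FSK regions called in no other list and 2.44% in those shared with control alone. The midpoints of 51.3% of members lay in introns, 5.64% in exons, and 39.6% outside protein-coding genes. Other small classes were placed alike. FSK regions called in no other list gave 51.7%, 5.23%, and 41.3%, and those shared with control alone 50.1%, 4.72%, and 42.8%. Median GC content over 500 bp was 44.0%, close to 44.8% in the control/TNFα class, and below 48.2% in regions called in all 4 lists. Outside promoters, the latter gave 45.8%. FSK regions called in no other list gave 42.0%, and those shared with control alone 43.8%. At members a median of 16.2% of these bases were in repeats. The medians were 17.6% in FSK regions called in no other list and 15.4% in those shared with control alone. Members were found on chromosomes 1 to 19 and X, and made up between 2.08% (chromosome 19) and 4.37% (chromosome 3) of the FSK regions of a chromosome.

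CRTC2 peaks did not enter the rule, and they were found at few members, but at more of them in the FSK lists. In the FSK list of CRTC2, 43 members (3.57%, 95% CI 2.66 to 4.77) overlapped a peak, and in the FSK/TNFα list 64 (5.31%, 4.18 to 6.73). In the TNFα list 23 members (1.91%, 1.28 to 2.85) did so, and in the control list 6 (0.498%, 0.228 to 1.08). All FSK regions overlapped CRTC2 peaks far more often, at 21.7% with FSK, 25.0% with FSK/TNFα, 26.4% with TNFα, and 7.11% in control, so that the members as a set were poor in CRTC2. Part of this gap went with width, and FSK regions of at most 1000 bp gave 3.27% with FSK and 5.85% with TNFα. The order of the lists at members differed from that over all FSK regions, without a replicate check. The TNFα list, with 19527 peaks the longest of the 4, gave the highest share over all FSK regions, and at members it gave a lower share than either FSK list, although its interval overlapped that of the FSK list. This order was not particular to members. FSK regions called in no other H3AcK27 list gave 1.91% with FSK, 2.16% with FSK/TNFα, and 0.788% with TNFα, and those shared with control alone gave 1.79%, 1.71%, and 1.38%, with overlapping intervals. In the control/TNFα class the order was the other way round, at 3.09% with TNFα, 1.45% with FSK, and 1.70% with FSK/TNFα.

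The contrast between lists was seen in the wide members, a group set after the data were seen. Of the 170 members over 1000 bp, 24 overlapped a CRTC2 peak with FSK (14.1%, 95% CI 9.67 to 20.1) and 28 with FSK/TNFα (16.5%, 11.6 to 22.8), compared with 2 with TNFα (1.18%, 0.323 to 4.19) and 3 in control (1.76%, 0.602 to 5.06). The intervals of the FSK lists and of the other 2 lists did not overlap. Control/TNFα regions over 1000 bp gave 2.02% with FSK, 2.48% with FSK/TNFα, and 4.76% with TNFα. Regions over 1000 bp that were called in all 4 lists outside promoters gave 19.6%, 25.5%, and 16.2% in the same order. Among the 1035 members of at most 1000 bp, the shares were 1.84% with FSK, 2.03% with TNFα, and 3.48% with FSK/TNFα, and the intervals of these 3 lists overlapped. When the 4 CRTC2 lists were cut to the 5188 best-scored peaks each, the wide members gave 5.29% with FSK, 5.88% with FSK/TNFα, 0 of 170 with TNFα, and 1.76% in control. At these equal lengths the intervals of FSK (2.81 to 9.75) and FSK/TNFα (3.23 to 10.5) overlapped that of control. FSK regions over 1000 bp that were called in no other H3AcK27 list gave 13.0% with FSK, 15.9% with FSK/TNFα, and 1.45% with TNFα, values like those of the wide members. Those over 1000 bp shared with control alone, a class that FSK treatment does not define, gave 6.82%, 9.85%, and 1.52%, and their intervals for both FSK lists overlapped those of the wide members. The CRTC2 lists of the FSK libraries were called against the FSK input as well, so that the order of the lists shares the limit of the H3AcK27 calls. At the CRTC2 peaks within members, that input held a median of 0.730 normalized tags per peak in the FSK list, compared with 1.46 over all its peaks, and in the FSK/TNFα list 0.734 compared with 1.11. The untreated input was also lower at the 6 control peaks in members (0.371 compared with 0.797), but higher at the 23 TNFα peaks (1.16 compared with 0.780).

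**Figure D4:**
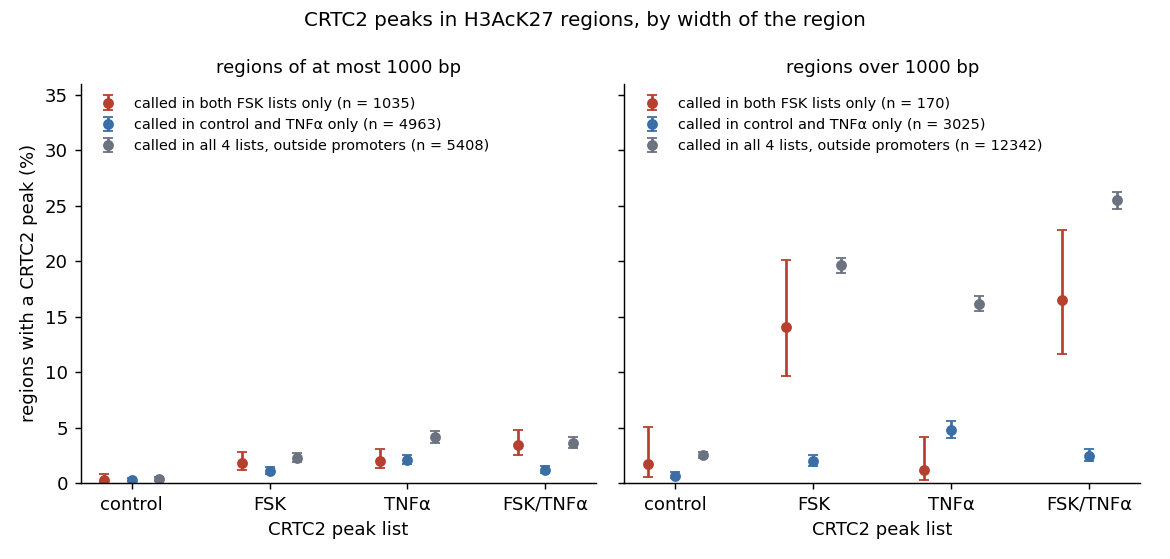
Share of H3AcK27 regions that overlap a CRTC2 peak (y axis, %) in each CRTC2 list (x axis), for regions of at most 1000 bp (left) and over 1000 bp (right), where points are shares and bars 95% Wilson intervals over regions. Wide members (red) stand at 14.1% and 16.5% in the FSK and FSK/TNFα lists and at 1.18% in the TNFα list, and the control/TNFα class (blue) stays below 5%.

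In all, 82 of the 1205 members overlapped a CRTC2 peak in at least 1 of the FSK lists, and 25 in both. For 22 members, peaks were called in both and in neither of the other lists. Among the other FSK regions, 31.0% overlapped a peak in at least 1 FSK list, and 3.53% in both only. For other FSK regions of at most 1000 bp, these shares were 6.01% and 0.379%. FSK regions called in no other H3AcK27 list gave 3.40% and 0.581%. Of the 22 members, 16 were wider than 1000 bp, 1 lay in a promoter, and their median gap to a control or TNFα region was 14262 bp. CRE cores were common in the peaks themselves. Within 200 bp centered on the peak, 15 of the 44 CRTC2 peaks of the FSK list in members had one (34.1%, 95% CI 21.9 to 48.9), as did 22 of 65 in the FSK/TNFα list (33.8%, 23.5 to 46.0). Of all CRTC2 peaks in those lists outside promoters, where nearly all members lay, 23.4% and 21.5% had one, the first within the interval of the members and the second just below it. Over all peaks the shares were 26.3% and 25.2%, both within. None of the 23 TNFα peaks in members had one (0%, upper bound 14.3%), a bound that includes the 7.99% of TNFα peaks outside promoters. AP1 motifs were in 25.0% of the FSK peaks in members and in 26.2% of the FSK/TNFα peaks. All peaks outside promoters gave 22.0% and 24.0% in these lists.

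The 10 members with the best CRTC2 scores in both FSK lists included the region near Gap43, a gene for a protein of growing axons. This region covered 2431 bp on chromosome 16, outside protein-coding genes and 139 kb from the start site, and the nearest control or TNFα region was 104 kb away. It held 102.7 normalized H3AcK27 tags with FSK and 79.7 with FSK/TNFα, and its CRTC2 scores were 27 and 29, which ranked 909 and 1681 in their lists. The region near Cdh5, which encodes the endothelial cadherin, lay 131 kb upstream of the start site and 4197 bp from the nearest control or TNFα region. Its H3AcK27 values were 81.4 normalized tags with FSK and 70.0 with FSK/TNFα, and its CRTC2 scores were 18 and 30. Thus the pair with the best scores stood far from the genes by which they are named, and proximity alone names them. The widest member, near Pi15, held 141.4 normalized tags with FSK and 116.6 with FSK/TNFα. Its CRTC2 scores were 12 and 37, the latter the highest of the 10 in the FSK/TNFα list. Scores were not compared between lists. The members near Atrnl1, in an intron of that gene, and near Eif3h, which encodes a subunit of a translation initiation factor, had CRTC2 scores of 16 with FSK and 21 with FSK/TNFα each. The other members of this group lay near Ncf4, a subunit gene of the phagocyte NADPH oxidase, Cisd2, Fam189a1, Clk1, a splicing kinase gene, and Gm26657. H3AcK27 was higher with FSK than with FSK/TNFα in normalized tags at 9 of the 10. The exception was the region near Cisd2, with 18.3 normalized tags over 500 bp with FSK and 49.4 over 1065 bp with FSK/TNFα. This direction was not particular to the 10, because 83.2% of all members were denser per kb with FSK.

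**Figure D5:**
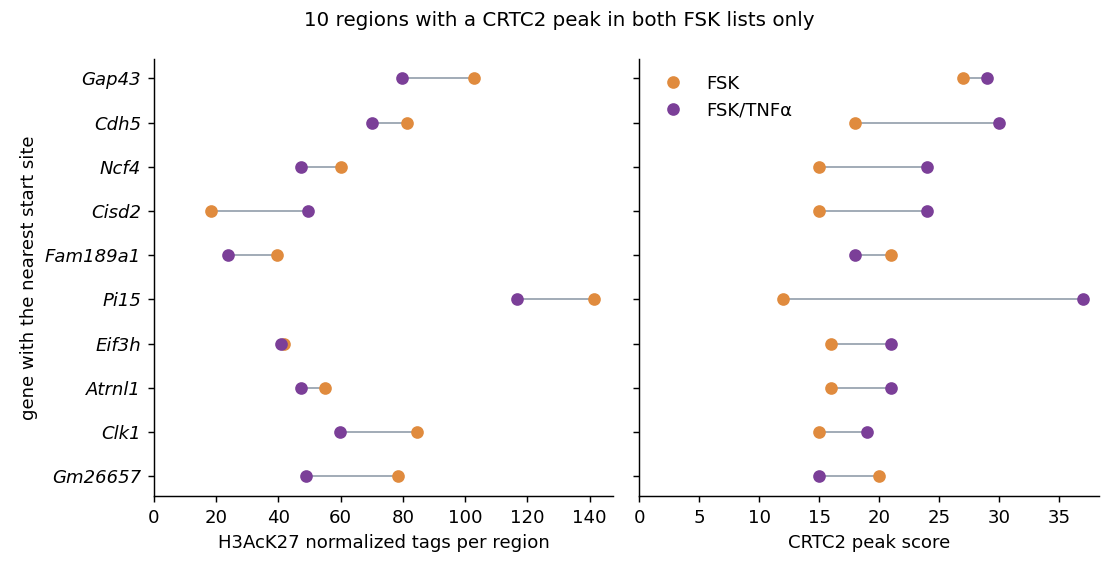
H3AcK27 normalized tags per region (left) and CRTC2 peak score (right) with FSK (orange) and FSK/TNFα (purple) for the 10 members with the best CRTC2 scores, named by the nearest start site, with 1 library per value. H3AcK27 is higher with FSK in 9 of 10, and of all members 83.2% were denser per kb with FSK. CRTC2 scores can be compared within a list only. The highest is 27 at Gap43 with FSK and 37 at Pi15 with FSK/TNFα.

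The members with the most H3AcK27 tags overlapped that group in part. Their ranking used tags per region, which favors wide regions. Ranked by normalized tags in both FSK libraries, the first 10 lay near Selplg, Pi15, Fancf, Spata18, Gap43, Catsperb, Cdh5, 1600014C23Rik, Inpp5f, and Clk1, and all 10 were outside promoters and between 1531 and 3361 bp wide. Of these, 6 had CRTC2 peaks in both FSK lists only, and 7 had a peak in at least 1 list. Among all 170 members over 1000 bp these counts were 16 and 40. The member near Selplg, the gene for the P-selectin ligand of leukocytes, held 108.8 normalized tags with FSK and 139.9 with FSK/TNFα, and lay 6.80 kb from the start site. The member near Fancf, a gene of DNA crosslink repair, held 168.8 normalized tags with FSK, the most of any member, and 92.5 with FSK/TNFα. For the member near Spata18, 394.1 normalized tags with FSK/TNFα came from a region of 5714 bp that overlapped the FSK region by 504 bp and also overlapped a control or TNFα region. That member therefore ranked high on signal that is only partly its own.

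p65 peaks were nearly absent from members. They were found at 0 members in the control list (upper bound 0.318%), 1 with FSK (0.083%), 3 with TNFα (0.249%), and 4 with FSK/TNFα (0.332%). Over all FSK regions the shares were 0.0776%, 1.22%, 1.77%, and 2.98%, and in the control/TNFα class they were 0.025%, 0.401%, 0.613%, and 0.663%. Other FSK regions of at most 1000 bp gave 0.406% with FSK, 0.406% with TNFα, and 0.652% with FSK/TNFα. FSK regions called in no other list gave 0.539%, 0.207%, and 0.207%, and those shared with control alone 0.244%, 0.163%, and 0.488%. The low p65 shares were thus not particular to members. The exact NF-κB motif used in the study was in 1 member (0.083%) within 200 bp of sequence at the midpoint, against 0.116% of all FSK regions.

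CRE cores and AP1 motifs at the midpoints were more frequent in wide than in narrow members. A CRE core was in 6.80% of members (95% CI 5.52 to 8.37), compared with 8.45% of all FSK regions, 5.33% of the control/TNFα class, and 5.89% of windows 2 kb away from the same members. Over 1000 bp, 24 of 170 members had one (14.1%, 9.67 to 20.1), compared with 5.60% (4.36 to 7.18) of the narrower members. The other FSK regions showed the same trend, with 10.5% over 1000 bp and 5.46% at most 1000 bp. Control/TNFα regions over 1000 bp gave 5.75%, and regions called in all 4 lists outside promoters 7.31%, both below the interval of the wide members. FSK regions of that width gave 10.1% (5.0 to 19.5) when called in no other list and 9.09% (5.28 to 15.2) when shared with control alone, and both intervals overlapped that of the wide members. AP1 motifs were in 6.80% of members, 8.49% of all FSK regions, and 9.84% of the control/TNFα class. In the wide members the AP1 share was 12.9% (8.70 to 18.8), in the narrower ones 5.8% (4.53 to 7.39), and in the wide control/TNFα regions 13.1%. A C/EBP motif was in 18.0% of members and 16.8% of all FSK regions, a difference within the interval of the members (15.9 to 20.3), and in 22.4% of wide and 17.3% of narrower members, with overlapping intervals. For AP1 the intervals of the wide members and of the wide control/TNFα regions overlapped, and for the CRE core they did not.

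Named pathways were read through the nearest protein-coding start site. The 1205 members were nearest to 1068 of 21842 protein-coding genes (4.89%). Of 177 listed genes, 23 (13.0%) were nearest to a member, but 83.6% of them were nearest to some FSK region, compared with 58.3% of all protein-coding genes. In the control/TNFα class, 73 listed genes (41.2%) were nearest to a region, against 20.9% of all. Of the 29 members nearest to listed genes, 13 had the minimum width, 6 had a CRTC2 peak in any list, and 0 had one in both FSK lists. At 8 of the 29, the FSK/TNFα region also overlapped a control or TNFα region. Their FSK values ran from 9.15 to 45.8 normalized tags, with a median of 16.3.

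Among 30 CREB/CRTC targets, 9 were nearest to a member, 13 to a region of the control/TNFα class, and 29 to some FSK region. Of all protein-coding genes, 4.89% were nearest to a member and 20.9% to a control/TNFα region. Counted by a start site within 50 kb, the targets were 8 and 8, and the shares of all protein-coding genes 7.49% and 32.8%. Crem, which encodes the CREB family member that gives rise to the repressor ICER, had 2 members. The first, in an intron 4.09 kb from the start site, covered 1358 bp and held 28.5 normalized tags with FSK and 14.8 with FSK/TNFα. The second lay 20.9 kb from the start site and held 26.4 and 21.4 normalized tags. Near Cebpd, a C/EBP gene induced early in adipogenesis, a member 8.28 kb upstream held 31.5 normalized tags with FSK and 27.6 with FSK/TNFα. The member near Ppargc1a, the gene for the coactivator PGC-1α, lay 184 kb away and held 38.6 and 12.0 normalized tags. The member in Irs2, an insulin receptor substrate gene, held 21.4 normalized tags with FSK but overlapped a FSK/TNFα region of 11018 bp that extended into regions called in control or TNFα cells. Members near Dusp1 and Maff held 14.2 and 16.3 normalized tags with FSK and 13.6 and 11.3 with FSK/TNFα. Those named by Nr4a2, Sik1, and Cited2 lay 32.6, 45.8, and 933 kb from the start sites and held at most 12.2 with FSK. At Sik1 the FSK/TNFα region also overlapped a control or TNFα region.

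Of 35 genes of cAMP signalling and its attenuation, 6 were nearest to a member (15 in the control/TNFα class), and 30 to some FSK region. Pde4d, a cAMP phosphodiesterase gene, had 3 members in its introns, with 17.3, 24.4, and 27.5 normalized tags with FSK and 7.77, 14.4, and 17.1 with FSK/TNFα. The last of these had a CRTC2 peak with FSK, with a score of 9. Pde10a, another phosphodiesterase gene, had 2 members of 500 bp with 11.2 and 15.3 normalized tags with FSK and 9.33 each with FSK/TNFα, and the first had a CRTC2 peak with FSK/TNFα. The member 33.2 kb upstream of Adrb1, which encodes the β1-adrenergic receptor, was the widest in this group at 1752 bp, with 45.8 normalized tags with FSK and 18.3 with FSK/TNFα. A member in Sik3, a CRTC kinase gene, held 32.5 and 26.0 normalized tags, and its FSK/TNFα region also overlapped a control or TNFα region. Adcy4, an adenylyl cyclase gene, had a member with 16.3 normalized tags with FSK and 7.77 with FSK/TNFα, and CRTC2 was called there with TNFα. At Prkar1a, the gene for a regulatory subunit of PKA, the FSK region held 9.15 normalized tags, and the FSK/TNFα region of 5831 bp held 531.7 and overlapped a control or TNFα region.

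Lipid and inflammatory genes added fewer. Their lists are short, and of all protein-coding genes 4.89% were nearest to a member and 20.9% to a control/TNFα region. Of 25 genes of lipolysis and lipid storage, 2 were nearest to a member: Cd36, a fatty acid transporter gene, with 32.5 normalized tags with FSK and 27.6 with FSK/TNFα in an intron, and Plin4, a lipid droplet gene, with 13.2 and 20.2. In the control/TNFα class, 11 of the 25 were nearest to a region. Of 18 thermogenic genes, 2 were nearest to a member, Ppargc1a and Pdk4, a kinase gene that limits glucose oxidation. Pdk4 had 2 members, with 14.2 and 18.3 normalized tags with FSK and 24.1 and 7.0 with FSK/TNFα, and the first lay 19 bp from a control or TNFα region and shared its FSK/TNFα region with one. Of 19 clock genes 1 was nearest to a member, Arntl, 122 kb away with 12.2 normalized tags with FSK and a CRTC2 peak with FSK/TNFα of score 25, where the FSK/TNFα region also overlapped a control or TNFα region. Of 19 adipocyte identity genes 0 were nearest to a member, and 9 to a region of the control/TNFα class, the larger class. The clock share (5.26%) was close to that of all protein-coding genes, and 19 genes are too few to set 0 apart from it. Of 34 NF-κB and inflammatory genes, 4 were nearest to a member: Cxcl3, Nfkb1, Vcam1, and Lif. Cxcl3, a neutrophil chemokine gene, had 2. The first overlapped its promoter, the only promoter among the 29, with 23.4 normalized tags over 847 bp with FSK and 70.3 over 2831 bp with FSK/TNFα, and the FSK/TNFα region also overlapped a control or TNFα region. The second lay 4.92 kb upstream, with 12.2 and 26.8 normalized tags. The member 50.8 kb from Vcam1, a leukocyte adhesion molecule gene, held 23.4 normalized tags with FSK and 30.7 with FSK/TNFα. For Lif, a cytokine gene of the IL-6 family, the values were 13.2 and 7.38 normalized tags. That member lay 86.2 kb from the start site, in an intron of Hormad2. The member 39.5 kb from Nfkb1, the gene for the NF-κB subunit p50, held 16.3 and 79.7 normalized tags. Its FSK/TNFα region also overlapped a control or TNFα region.

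Members seldom gathered at a gene. Lpp, a gene for a focal adhesion protein, was nearest to 4, all in its introns, with between 12.2 and 22.4 normalized tags with FSK and between 8.55 and 43.5 with FSK/TNFα. Another 22 genes were nearest to 3 members, and 90 to 2. The first of these by name were Adamts1, Adgrl3, Babam2, and Ccser2. At Adamts1, a gene for a secreted metalloproteinase, the 3 members lay between 5.02 and 123 kb from the start site and held between 10.2 and 18.3 normalized tags with FSK. At Babam2 all 3 were intronic, and the strongest, of 1306 bp, held 52.9 normalized tags with FSK and 31.5 with FSK/TNFα. Members at Adgrl3 and Ccser2 held between 11.2 and 29.5 normalized tags with FSK and lay between 60.5 and 1606 kb from the start sites.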

How the data were processed

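Lists of H3AcK27, CRTC2, and p65 ChIP-seq in 4 treatments, 1 library each, were grouped by the sample labels. The authors aligned reads with STAR and called regions per library with HOMER on mm10, versions not given in the sources used here. For H3AcK27, they joined 500 bp windows with at least 4-fold over input and a Poisson p of at most 0.0001. The deposited signal is tags per 10000000. The deposited tag counts, fold ratios over input, and scores were used as given, fold and score within a list only. H3AcK27 libraries held between 9832884 and 27966129 tags, which sets the weakest region listed.

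The 243429 peaks fit the GRCm38 chromosome lengths, with 0 beyond an end. Genes were from GENCODE mouse release 21, and sequences from the RefSeq GRCm38 genome. Overlap meant at least 1 bp. Motifs were exact matches on both strands within 200 bp at the midpoint (TGACG for CRE, and the AP1, C/EBP, and NF-κB consensus sequences). No p-value was computed. The sequence of 1 peak is not reported here.

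Regions were named by the nearest protein-coding start site: the 10 with the most tags in both FSK libraries, the 10 with the best CRTC2 scores in both FSK lists only, the 15 nearest to start sites of listed genes, the 5 genes with the most members, and those at the thresholds. The other 14 regions at listed genes, the group over 1000 bp, and the check of the FSK/TNFα region were added after the data were seen. The members and lists were chosen with earlier results of these data known. Alternatives covered overlap, fold, list length, windows, width, and promoters. On simulated lists, the code recovered 332 of 332 planted members (Python 3.11.15, numpy 2.4.6, pandas 2.3.3, pysam 0.24.0, samtools 1.23.1, matplotlib 3.10.9).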

Additional observations from a re-analysis of the deposited data

How the results depend on the processing

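Of 65 alternative values, 33 stayed within the limits set for them, which were 1.5 times the count or the 95% interval of the share, and 32 moved. The cause was not tested unless the setting itself names it. The number of members (1205) became 748 without control or TNFα regions within 1 kb, 118 at 8-fold over input in the FSK lists, 754 at 8-fold in all 4, and 2255 with equally long lists. The control/TNFα class (7988) became 611 at 8-fold in its own lists and 4288 with equally long lists. With CRTC2 peaks within 1 kb, shares were 1.16% in control, 6.22% with FSK, 4.56% with TNFα, and 9.79% with FSK/TNFα. With equally long CRTC2 lists they were 1.16% with FSK, 0.083% with TNFα, and 1.16% with FSK/TNFα. At 8-fold they were 0.996% with TNFα and 3.90% with FSK/TNFα, and in the central 500 bp 0.166% in control. Members with no control or TNFα region within 1 kb gave 4.81% with FSK and 7.62% with FSK/TNFα. Members of at most 1000 bp gave 1.84% and 3.48%. Members over 1000 bp, a group set after the data were seen, gave 1.76% in control, 14.1%, 1.18% with TNFα, and 16.5%. Among those settings, TNFα came above FSK only at most 1000 bp. p65 peaks within 1 kb gave 0.581% with FSK and 1.66% with FSK/TNFα. Promoters gave 9.71% at 2500 bp on either side and 7.22% with all transcripts. In 500 bp, motif shares were 15.4% for CRE, 16.0% for AP1, and 36.6% for C/EBP, and the CRE palindrome was in 0.083%. No paired analysis was possible because each group has 1 library, and no library could be left out.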
